A study of Mus musculus with 20 samples.

Results

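The interferon response genes are 38 genes chosen by name as a set that cells switch on when interferon reaches them, with the type I antiviral genes and the gamma-induced GTPases kept apart. For each gene the probe of highest mean intensity was read among the probes whose accession carried that symbol or an older synonym. Of the 38, 35 had such a probe, and all 35 were present in liver by the limit set from negative control spots. Mx1, Mx2 and Xaf1 had no matched probe and were not analysed here. The 35 genes stand among 12986 named genes with a present probe (27345 present probes of 41174 on the array), and each gene was represented by 1 probe.

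Interferons are secreted proteins that warn cells of infection. Type I interferons (alpha and beta) bind the receptor of Ifnar1 and Ifnar2, and the kinases Jak1 and Tyk2 then activate a factor that holds Stat2 and Irf9 and binds the interferon-stimulated response element of antiviral genes. Interferon gamma, made mainly by T and NK cells, signals through Ifngr1 and Ifngr2 to promoters with gamma-activated sites and turns on GTPases, Irf1 and antigen-processing genes. A low tonic level of this program is present in uninfected tissue, and in liver hepatocytes, Kupffer cells, endothelial cells and resident lymphocytes can all take part.

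Liver RNA came from 20 male mice of transgenic strain 40.6 (Muta™Mouse, which carries a lacZ reporter for mutations in every tissue), 25 weeks of age, with 5 animals in each of 4 groups. The control group received the olive oil vehicle and the other groups received benzo(a)pyrene (BaP), a combustion product that is metabolized to DNA-binding diol epoxides, at 25, 50 or 75 mg/kg/day for 28 days, and all animals were killed 3 days after the last dose. Each liver was hybridized once, in the Cy5 channel, against universal mouse reference RNA pooled from cell lines in the Cy3 channel, so every level below is a log2 ratio of liver over reference and every difference is between such ratios. The text on the whole series states a slightly different lowest dose, and the sample labels were followed here. The labels name both liver and lungs as the tissue. The lung surfactant genes Sftpc and Sftpb were well above background on 0 of the 20 arrays, whereas albumin (Alb) had a mean log2 ratio of 3.68 ± 0.69 (SD, n = 5) in the controls. Other genes of the lung list were detected: Sftpd was well above background in 4 of 5 controls and all exposed livers, with means from 0.97 in the controls to 2.16 at 75 mg/kg/day (limma adjusted p 0.0688), Sftpa1 on 3 to 5 arrays of each group and Aqp5 on every array.

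Arrays of a group correlated with r between 0.931 and 0.983 over probes, the liver channel was well above background at 51.9 to 67.5% of spots, and a present probe had a median SD of 0.22 between arrays of a group. The arrays lay on 6 slides, each scanned in its own session. Slides 1, 2 and 3 held 1 array of every group, slides 4 and 5 each held 1 array at 25 and 1 at 75 mg/kg/day, and slide 6 held controls 2 and 3 with 2 arrays at 50 mg/kg/day. Every array of the 25 mg/kg/day group took position 2 on its slide and every array of the highest dose position 4. Of the other arrays, control 2 alone shared position 2 and replicate 13 at 50 mg/kg/day alone shared position 4, so position and dose largely coincide, and the effect of position was not tested. In bulk liver RNA, fewer cells of a type and less RNA per cell cannot be told apart.

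Promoters of a few members are printed here because the set is defined by its response to these factors. A pair of patterns was searched on both strands in the 250 bases before the start of each gene in RefSeq promoters of build GRCm38.p6: the core of the interferon-stimulated response element, a GAAA repeat with any 2 bases between, and the gamma-activated site, TTCNNNGAA. Of the 38 listed genes 31 had a promoter entry, of which 15 (48.4%) held the first and 11 (35.5%) the second, against 3.46% and 8.13% of 27018 genes in all. Among the GTPases 7 of 8 held the element core and 4 the gamma-activated site, and among the type I effectors 6 and 4 of 12 did. The type I effectors Oas1a and Bst2 held both patterns, and the GTPases Irgm1, Gbp2 and Gbp3 held the element core alone. The patterns therefore do not divide the classes. No promoter entry was found for Usp18, Mx1, Mx2, Zbp1, Parp14, Dhx58 and Iigp1. The windows below run 5′ to 3′ on the strand of the gene, and capitals mark every match to either pattern, overlapping matches joined. Isg15, Ifit1 and Rsad2 are shown for the type I effectors, and their promoters held the element core without a gamma-activated site:
Isg15 (chr4:156200860-156200911, minus strand): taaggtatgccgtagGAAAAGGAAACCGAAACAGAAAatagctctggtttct
Ifit1 (chr19:34640770-34640828, plus strand): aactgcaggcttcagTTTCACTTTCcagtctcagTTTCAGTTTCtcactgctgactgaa
Rsad2 (chr12:26456548-26456587, minus strand): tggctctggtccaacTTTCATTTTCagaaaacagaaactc
Igtp, Irgm2, Tgtp1 and Gbp7 are the GTPases that held both patterns:
Igtp (chr11:58199496-58199546, plus strand): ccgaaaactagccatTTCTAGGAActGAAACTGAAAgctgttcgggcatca
Irgm2 (chr11:58214887-58214937, plus strand): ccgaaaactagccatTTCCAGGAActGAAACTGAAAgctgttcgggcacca
Tgtp1 (chr11:48992299-48992349, minus strand): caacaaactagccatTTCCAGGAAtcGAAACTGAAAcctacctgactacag
Gbp7 (chr3:142530215-142530307, plus strand): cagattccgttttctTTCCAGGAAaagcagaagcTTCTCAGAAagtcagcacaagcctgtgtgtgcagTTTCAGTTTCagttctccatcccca
Isg15 held 3 overlapping element cores in 1 run. The windows of Igtp and Irgm2, both on chromosome 11, were identical at 49 of 51 bases, with a gamma-activated site 2 bases before an element core. A match is a description of the letters and not a measured binding site.

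In the livers of the vehicle controls the program was measurable. All but 3 of the 35 genes were well above background on all 20 arrays. The exceptions were Ifi44, well above background in 3 of 5 controls, Ifit2, in 4 of 5 controls, and Irgm2, for which 1 spot at 50 mg/kg/day (replicate 13) was marked as an outlier and dropped from the fit. In the controls 20 genes had a higher signal in liver than in the reference RNA and 15 a lower signal. Iigp1, a GTPase that loads onto the vacuoles of intracellular parasites, had a mean log2 ratio of 6.43 in the controls, and Igtp of the same class had 2.08. Ifi44 and Socs1 were at -1.74 and -1.68. No probe's level was set against another probe's, since each has its own reference.

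The vehicle control animals differed widely from each other. The members' SD had a median of 0.35 among controls against 0.22 over all present probes, and of the 35 genes 18 had their widest spread in the control group. Over the type I effectors, controls 1 and 5 lay high, with medians of 0.36 and 0.35 from the control mean, and controls 2 and 3, the ones on slide 6, lay low, with -0.37 and -0.51. Usp18, the protease that removes Isg15 from proteins and damps the interferon receptor, was -0.44, -2.11, -2.26, -1.51 and -1.04 in controls 1 to 5. Ifi44, an antiviral protein, was -0.71, -3.06, -2.75, -1.05 and -1.12, and Ifit1, which binds foreign RNA caps, was 1.15, -0.89, -0.84, -0.28 and 0.03. Both slide 6 controls lay below all 3 other controls for 15 genes, and above them for 1 gene, Tap1, against 20.0% and 16.3% of all present probes. The 15 included Usp18, Ifit1, Ifit2, Ifit3, Oasl2, Rsad2, Ifi44, Bst2, Eif2ak2 and Parp14 of the 14 measured type I effectors, and 2 of the 9 GTPases (Tgtp1 and Gbp3). The 2 arrays at 50 mg/kg/day from the same slide, replicates 12 and 13, were also low for the type I effectors, with median differences of -0.52 and -0.40 from the control mean. Slide and animal cannot be told apart for these controls. Of the counts below, those of members lower than control at an unadjusted p under 0.05 are given with and without them. Counts of lower means, of members over 1.5-fold lower, of other pathway genes and of markers use all 5 controls. Without both slide 6 controls, the members' median difference from control was -0.39 at 25, -0.25 at 50 and -0.28 at 75 mg/kg/day, against -0.25, -0.08 and -0.13 with all 20 arrays.

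**Figure D1:**
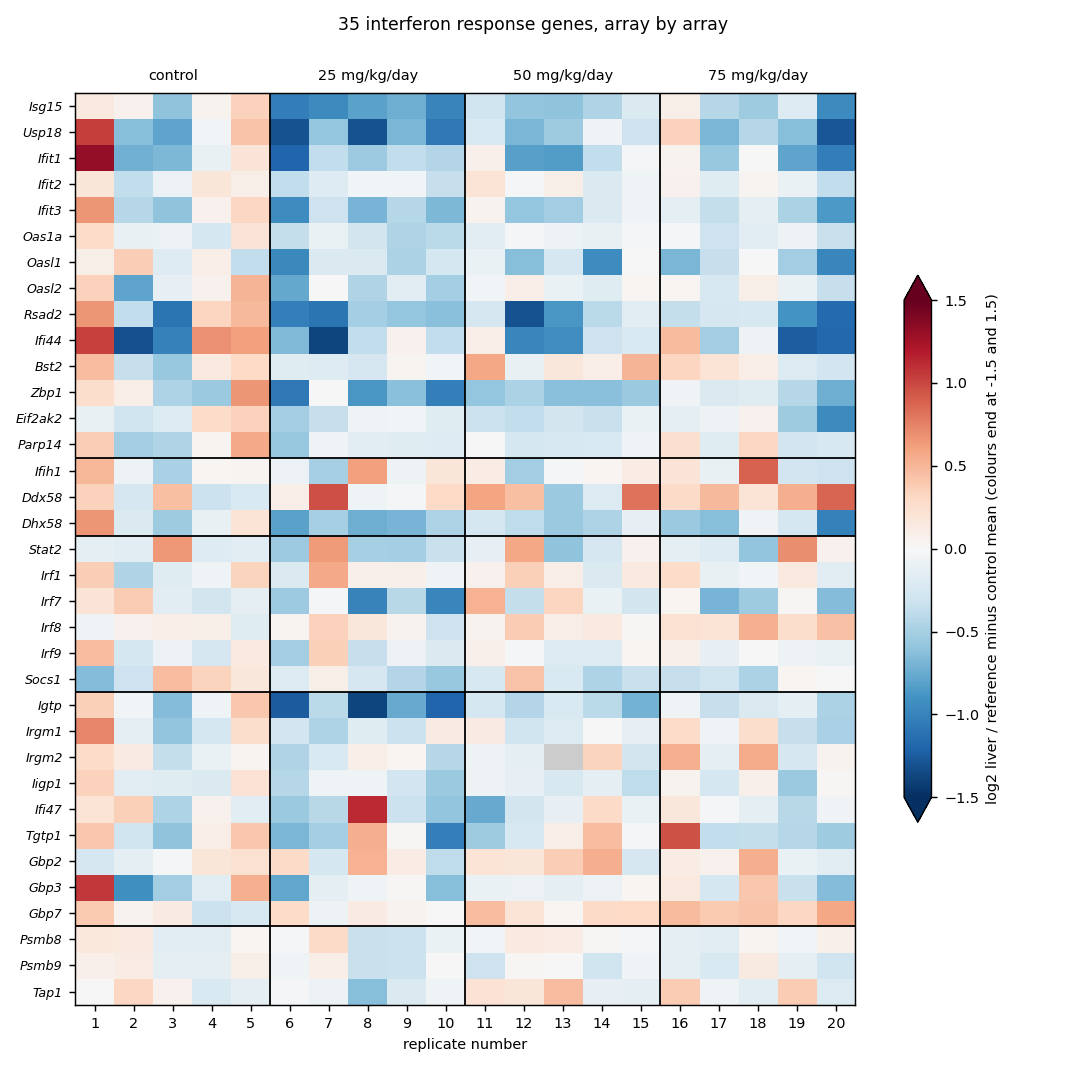
Each row is 1 of the 35 measured genes and each column 1 liver, numbered by replicate. Colour gives the log2 ratio of liver over reference minus the mean of the 5 controls. Black lines divide dose groups and the 5 roles (type I effectors, RNA sensors, transcription factors and feedback, GTPases, peptide processing). In the top block controls 2 and 3 are mostly blue (medians -0.37 and -0.51), controls 1 and 5 mostly red (0.36 and 0.35), and the arrays at 25 mg/kg/day mostly blue. The grey cell is the dropped Irgm2 spot.

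At 25 mg/kg/day most interferon response genes had lower means than in the controls, the type I antiviral class with the lowest median, but no gene passed the test. Of the 35 genes 29 had a lower mean than in the controls, where 49.7% of all present probes did, and the median log2 difference was -0.25 against 0 over all probes. At an unadjusted p under 0.05, 10 genes were lower and 0 higher, against 3.62% and 4.18% of all probes (limma). The mean of 8 genes was lower by more than 1.5-fold, which held for 0.227% of all probes. After adjustment over the 27345 probes by Benjamini-Hochberg, 0 members were called (adjusted p under 0.05 and fold over 1.5), as were 0% of all probes at this dose. The lowest adjusted p among the members was 0.338.

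The count at 25 mg/kg/day depended on the controls. It was 16 of 35 without control 2 (5.03% of all probes), and between 9 and 13 without any other single array (2.34 to 4.51%). It was 19 without both slide 6 controls, when 7.35% of all probes were lower at that threshold, and 18 without all 4 arrays of slide 6 (7.65%). In slides 1 to 3 alone with slide as a block it was 21 (5.81%). With all 20 arrays it was 12 with slide as a fixed block (4.59%), and also as a random block (4.73%). On each of the 3 slides that held both groups, 21 genes were below the control of that slide, which held for 16.7% of all probes, and no gene was above it on all 3. The 21 included 13 of the 14 type I effectors, all but Oasl1, and 3 of the 9 GTPases. The controls on these slides were controls 1, 4 and 5, the same ones that remain in the fits without slide 6. The within-slide counts and those fits are therefore not independent of each other.

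Isg15 codes for a ubiquitin-like protein that is attached to viral and cellular proteins. It measured 0.08, 0.00, -0.66, -0.01 and 0.28 in controls 1 to 5 and -1.10, -1.02, -0.86, -0.80 and -1.05 at 25 mg/kg/day. The livers of the 50 and 75 mg/kg/day groups measured -0.36, -0.65, -0.67, -0.51 and -0.28, and then 0.03, -0.49, -0.60, -0.26 and -1.02. All 5 livers at 25 mg/kg/day lay below every control, a separation that 0.662% of all probes showed in this direction, and Isg15 was the only member with it. The mean difference of -0.90 (SE 0.17, 1.87-fold lower, n = 5 a group) had a limma adjusted p of 0.338. Within slides 1, 2 and 3 the differences were -0.79, -1.14 and -1.13, and with slide as a block the estimate was -0.96 (limma adjusted p 0.174). Without control 3, the lowest control, Isg15 was called with a difference of -1.05 (limma adjusted p 0.0245). Over all 20 fits that left out 1 array the adjusted p ran from 0.0245 to 0.875 in limma.

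Igtp, also known as Irgm3, is a GTPase that guards the membranes of lipid droplets and pathogen vacuoles. It measured 2.44, 2.04, 1.43, 2.02 and 2.49 in controls 1 to 5 and 0.84, 1.68, 0.71, 1.33 and 0.90 at 25 mg/kg/day. The values of the 50 mg/kg/day group were 1.82, 1.64, 1.86, 1.68 and 1.38, and those of the highest dose 2.02, 1.74, 1.87, 1.94 and 1.61. At 25 mg/kg/day 4 of 5 livers lay below all controls and replicate 7 within their range. The difference of -0.99 (SE 0.19, 1.99-fold lower) had a limma adjusted p of 0.338. Within slides 1, 2 and 3 it was -0.69, -1.77 and -1.53, and with slide as a block -1.12 (limma adjusted p 0.174). Igtp too was called without control 3, at -1.15 (limma adjusted p 0.0245), and its adjusted p reached 0.875 without another array. In the fit without control 3, 2 of 27345 probes were called at 25 mg/kg/day, those of Isg15 and Igtp.

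All 14 measured type I effectors had lower means at 25 mg/kg/day than in the controls, with a median difference of -0.49, and 7 were under the unadjusted threshold. These 7 were Isg15, Usp18, Zbp1, Oas1a, Ifit3, Rsad2 and Oasl1. Zbp1, a sensor of Z-form nucleic acids that can trigger necroptosis, measured 1.02, 0.85, 0.29, 0.19 and 1.41 in the controls. The livers at 25 mg/kg/day measured -0.32, 0.75, -0.12, 0.13 and -0.27, those at 50 mg/kg/day 0.17, 0.28, 0.12, 0.13 and 0.19, and those at 75 mg/kg/day 0.70, 0.53, 0.57, 0.32 and 0.02. At the lowest dose 4 of 5 values lay below every control (difference -0.72, SE 0.21, limma adjusted p 0.637), and within slides the difference was -0.06 on slide 1 and -1.53 and -1.28 on slides 2 and 3. Usp18 measured -2.78, -2.05, -2.78, -2.16 and -2.54 at 25 mg/kg/day and differed by -0.99 (SE 0.30, limma adjusted p 0.637), with 3 of 5 livers below every control. Ifit3, an RNA-binding partner of Ifit1, differed by -0.61 (SE 0.21). Rsad2 (viperin, which makes a chain-terminating nucleotide) differed by -0.77 (SE 0.29), and its 2 dimmer probes by -0.40 and -0.56. Oas1a, a member of the family that senses double-stranded RNA, differed by -0.31 (SE 0.10). The other effectors ran from -0.13 for Bst2, the tether of budding virions, to -0.58 for Ifit1. Parp14 differed by -0.24 with its brightest probe and by 0.02 and -0.07 with its 2 dimmer probes, so its direction depends on the probe. Probes of near-identical relatives (Ifit3 and Ifit3b, the Oas1 cluster, Tgtp1 and Tgtp2) can share signal, so these genes stand for their families.

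**Figure D2:**
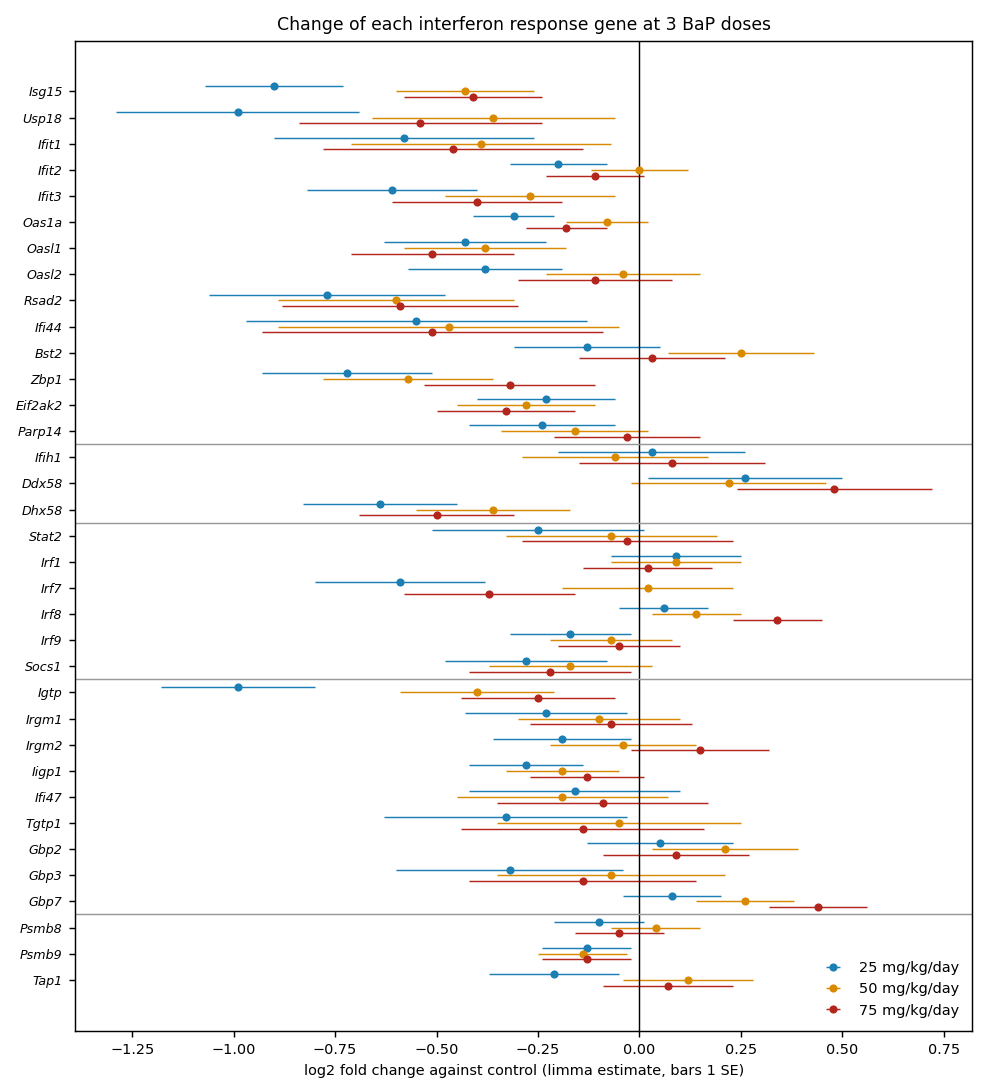
Points give the limma estimate of the log2 difference from control for each gene at 25 (blue), 50 (orange) and 75 mg/kg/day (red), with bars of 1 SE. Grey lines divide the 5 roles. All 14 type I effectors at the top lie left of 0 at 25 mg/kg/day, and Ddx58, Gbp7 and Irf8 are among 9 genes right of 0 at 75 mg/kg/day.

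Among the RNA sensors, Dhx58 (LGP2, a helicase that regulates the other sensors) also had lower means. It measured 2.34, 1.46, 1.14, 1.57 and 1.88 in the controls and 0.88, 1.18, 0.95, 0.98 and 1.21 at 25 mg/kg/day. The middle dose gave 1.41, 1.30, 1.12, 1.21 and 1.56 and the highest 1.12, 1.04, 1.63, 1.41 and 0.67. The differences were -0.64, -0.36 and -0.50 (SE 0.19 each), with limma adjusted p of 0.637, 0.754 and 0.325. Against the control of the slide, or on slide 6 the mean of its 2 controls, it was lower in all 3 livers at 25, all 5 at 50 and all 3 at 75 mg/kg/day. On slide 6 these differences were -0.01 and -0.18. Ddx58 (RIG-I, the sensor of uncapped RNA ends) measured 1.14, 0.54, 1.24, 0.47 and 0.56 in the controls and 0.89, 1.76, 0.73, 0.77 and 1.09 at 25 mg/kg/day. It measured 1.38, 1.24, 0.23, 0.58 and 1.60 at 50 and 1.08, 1.28, 0.99, 1.34 and 1.66 at 75 mg/kg/day, with a mean difference of 0.48 (SE 0.24, limma adjusted p 0.47) at the highest dose. Its probes disagreed: the 2 dimmer ones had -0.29 and -0.03 there, and the mean of its probes at 25 mg/kg/day was -0.03 where the brightest probe had 0.26. Ifih1 (MDA5, the sensor of long double-stranded RNA) had differences of 0.03, -0.06 and 0.08 at the 3 doses, and its dimmer probe had 0.47 (unadjusted limma p 0.00271), 0.17 and 0.22.

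Of the 6 transcription factors and feedback genes, 4 had lower means at 25 mg/kg/day, with a median of -0.21, and Irf7 was under the unadjusted threshold. Irf7, the factor that amplifies type I interferon production, measured -0.17, 0.01, -0.53, -0.64 and -0.51 in the controls and -0.91, -0.40, -1.37, -0.78 and -1.35 at 25 mg/kg/day. It measured 0.15, -0.72, -0.05, -0.47 and -0.64 at 50 and -0.34, -1.07, -0.90, -0.35 and -1.02 at 75 mg/kg/day. At the lowest dose 4 of 5 livers lay below every control (difference -0.59, SE 0.21, limma adjusted p 0.637). The difference was 0.02 at 50 and -0.37 at 75 mg/kg/day. Irf9 and Stat2, partners in the type I factor, differed by -0.17 and -0.25 at 25 mg/kg/day (limma adjusted p 0.787 and 0.821), and Irf1 by 0.09. The dimmer probe of Irf1 had -0.21 at that dose, and that of Irf9 had -0.26 there and -0.35 (unadjusted limma p 0.017) at 75 mg/kg/day. Socs1, the inhibitor that shuts off JAK kinases, measured -2.33, -1.99, -1.22, -1.35 and -1.51 in the controls and -1.89, -1.59, -1.93, -2.12 and -2.25 at 25 mg/kg/day. Its 50 mg/kg/day livers were at -1.92, -1.25, -1.91, -2.14 and -2.01 and its 75 mg/kg/day livers at -2.03, -1.98, -2.15, -1.65 and -1.68, and the groups overlapped at each dose.

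**Figure D3:**
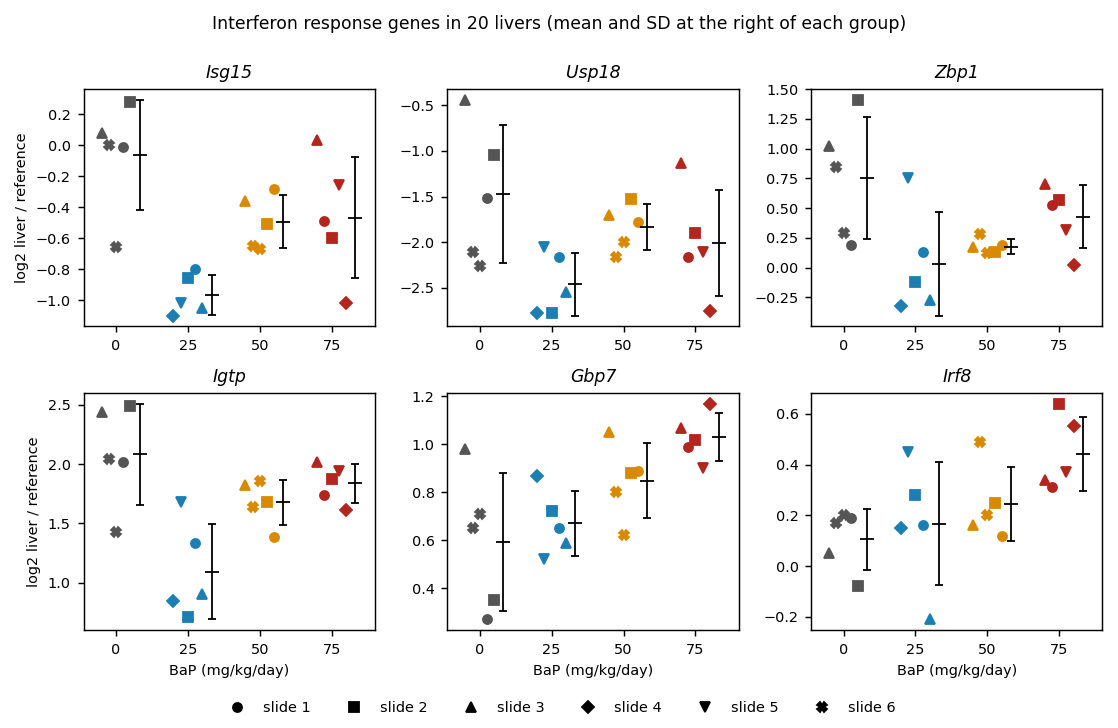
Each point is 1 liver, its marker shape gives the slide, and the bar beside each dose group shows the mean and SD of 5 livers. The y axes are log2 ratios of liver over reference and differ between panels. Isg15 at 25 mg/kg/day lies between -1.1 and -0.8, below all controls, and the control values of Usp18 span -2.26 to -0.44.

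Apart from Igtp, the GTPases differed by -0.33 (Tgtp1) to 0.08 (Gbp7) at 25 mg/kg/day. Of the 9, 7 had lower means, with a median of -0.23, and Igtp alone was under the unadjusted threshold. Iigp1 measured 6.78, 6.27, 6.25, 6.21 and 6.65 in the controls and 6.01, 6.37, 6.37, 6.14 and 5.88 at 25 mg/kg/day. The livers of the 50 and 75 mg/kg/day groups measured 6.36, 6.31, 6.19, 6.29 and 6.05, and then 6.48, 6.17, 6.51, 5.88 and 6.45. The difference was -0.28 (SE 0.14, limma adjusted p 0.65) at 25 mg/kg/day. Irgm2, whose promoter window nearly matches that of Igtp, differed by -0.19 (SE 0.17), and Irgm1 by -0.23 (SE 0.20). Gbp2 and Gbp3, guanylate-binding proteins of the same defence, differed by 0.05 and -0.32. Ifi47 at 25 mg/kg/day was 1.80, 1.94, 3.48, 2.03 and 1.76, with replicate 8 above all controls and 2 other livers below them.

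None of the 3 peptide-processing genes of the MHC class I pathway was under the unadjusted limma threshold against control at any dose. Psmb8 and Psmb9 are immunoproteasome subunits and Tap1 is a subunit of the peptide pump of the endoplasmic reticulum. Psmb9 measured 1.02, 1.06, 0.81, 0.80 and 1.03 in the controls and 0.88, 1.04, 0.61, 0.62 and 0.95 at 25 mg/kg/day. In the 50 and 75 mg/kg/day groups Psmb9 measured 0.63, 0.96, 0.94, 0.65 and 0.88, and then 0.81, 0.72, 1.08, 0.81 and 0.64. Its differences of -0.13, -0.14 and -0.13 had an SE of 0.11 each. Tap1 measured -0.02, 0.30, 0.05, -0.24 and -0.15 in the controls and -0.03, -0.10, -0.65, -0.23 and -0.08 at 25 mg/kg/day. At the higher doses Tap1 measured 0.21, 0.17, 0.45, -0.14 and -0.16, and then 0.37, -0.06, -0.18, 0.37 and -0.22, so that all groups overlapped. Psmb8 measured 0.40, 0.39, 0.09, 0.07 and 0.27 in the controls and 0.21, 0.53, -0.09, -0.08 and 0.15 at 25 mg/kg/day. In the 50 and 75 mg/kg/day groups Psmb8 measured 0.20, 0.39, 0.35, 0.26 and 0.23, and then 0.11, 0.07, 0.28, 0.20 and 0.32, with overlap at each dose.

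At 50 mg/kg/day no gene passed the test, and the type I effectors had a median difference of -0.32, with 12 of 14 means lower. Of the 35 genes 25 had a lower mean, against 50.8% of all probes, and the median difference was -0.08 against 0 over all probes. At an unadjusted p under 0.05, 4 were lower (Isg15, Zbp1, Rsad2 and Igtp) and 1, Gbp7, was higher, against 2.94% and 3.75% of all probes. None was called (0% of all probes were), and the lowest limma adjusted p was 0.678. Isg15 differed by -0.43 (SE 0.17) and lay below the control of its slide, or on slide 6 the mean of its 2 controls, in all 5 livers, with differences of -0.79 to -0.27. Zbp1 differed by -0.57 (SE 0.21), Rsad2 by -0.60 (SE 0.29) and Igtp by -0.40 (SE 0.19). The count of 4 became 13 without both slide 6 controls (7.75% of all probes), 7 without all of slide 6 (5.99%), 12 in slides 1 to 3 alone (8.69%) and 8 with slide as a fixed block (5.16%). It was 1 without control 5 (1.41%) and 2 without control 1, control 4, replicate 12 or replicate 14, when 1.85 to 4.52% of all probes were lower.

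At 75 mg/kg/day no gene passed the test, and most type I effectors had lower means than the controls. Gbp7 and Irf8 were among 9 genes with higher means, of which Ddx58 had the highest difference (0.48). Of the 35 genes 26 had a lower mean, against 49.4% of all probes, with a median difference of -0.13 against 0 over all probes. At the unadjusted threshold 3 were lower (Isg15, Oasl1 and Dhx58) and 2 higher (Gbp7 and Irf8), against 4.69% and 6.52% of all probes. None of the members was called, where 0.135% of all probes were. Of the 14 type I effectors 13 had lower means, with a median of -0.36. Isg15 differed by -0.41 (SE 0.17, limma adjusted p 0.377). Oasl1, an inactive relative of the Oas enzymes, measured -0.20, 0.08, -0.48, -0.19 and -0.66 in the controls and -0.97, -0.64, -0.30, -0.81 and -1.27 at 75 mg/kg/day. Its values at 25 and 50 mg/kg/day were -1.26, -0.51, -0.51, -0.76 and -0.55, and then -0.39, -0.93, -0.54, -1.23 and -0.28. At the highest dose 3 of 5 livers lay below every control (difference -0.51, SE 0.20, limma adjusted p 0.356).

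The count of 3 at 75 mg/kg/day was 13 without both slide 6 controls (9.53% of all probes), 12 without all of slide 6 (9.73%) and 9 in slides 1 to 3 alone (8.07%). It was 8 with slide as a fixed or random block (6.09% and 6.57%). It was 0 without replicate 20 (3.09%), 1 without control 1 (4.82%), 5 without control 4, replicate 17 or replicate 18 (3.64, 4.22 and 4.63%), 6 without replicate 16 (4.78%), and 8 without control 2 or control 3 (6.28 and 6.11%). Rsad2 was called in the fits without both slide 6 controls (-1.07, limma adjusted p 0.0464), without all of slide 6 (-1.07, limma adjusted p 0.0291) and in slides 1 to 3 alone (-0.77, limma adjusted p 0.0391). These fits called 0.783, 0.625 and 0.296% of all probes, against 0.135% with all 20 arrays. The slide 6 controls held the lowest control values of Rsad2, 0.11 and -0.61. With all 20 arrays the difference of Rsad2 was -0.59 (SE 0.29, limma adjusted p 0.457). On each of slides 1 to 3, 17 genes lay below the control of the slide at 75 mg/kg/day, against 17.8% of all probes, and 11 of them were type I effectors.

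Gbp7, a guanylate-binding protein that helps deliver oxidant and antimicrobial proteins to pathogens, measured 0.98, 0.65, 0.71, 0.27 and 0.35 in the controls and 0.87, 0.52, 0.72, 0.65 and 0.59 at 25 mg/kg/day. It measured 1.05, 0.80, 0.62, 0.88 and 0.89 at 50 and 1.07, 0.99, 1.02, 0.90 and 1.17 at 75 mg/kg/day. The means were 0.59, 0.67, 0.85 and 1.03 in order of dose. At the highest dose 4 of 5 livers lay above every control, for a difference of 0.44 (SE 0.12, 1.35-fold higher, limma adjusted p 0.175). Against the control of the same slide the 75 mg/kg/day livers were higher by 0.72, 0.67 and 0.09. The size depended on the processing. In the liver channel alone the difference of Gbp7 was 0.08 at 50 and 0.27 at 75 mg/kg/day. In the median-centred signals of the scanner software it was 0.50 and 0.57. Irf8, the factor that sets monocyte and dendritic cell fate, measured 0.05, 0.17, 0.20, 0.19 and -0.08 in the controls and 0.34, 0.31, 0.64, 0.37 and 0.55 at 75 mg/kg/day. Its 25 and 50 mg/kg/day values were 0.15, 0.45, 0.28, 0.16 and -0.21, and then 0.16, 0.49, 0.20, 0.25 and 0.12. All 5 livers at the highest dose lay above every control, which 0.936% of all probes showed in this direction. The difference of 0.34 (SE 0.11) had a limma adjusted p of 0.277, and a dimmer probe of Irf8 had -0.03 (unadjusted limma p 0.699).

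**Figure D4:**
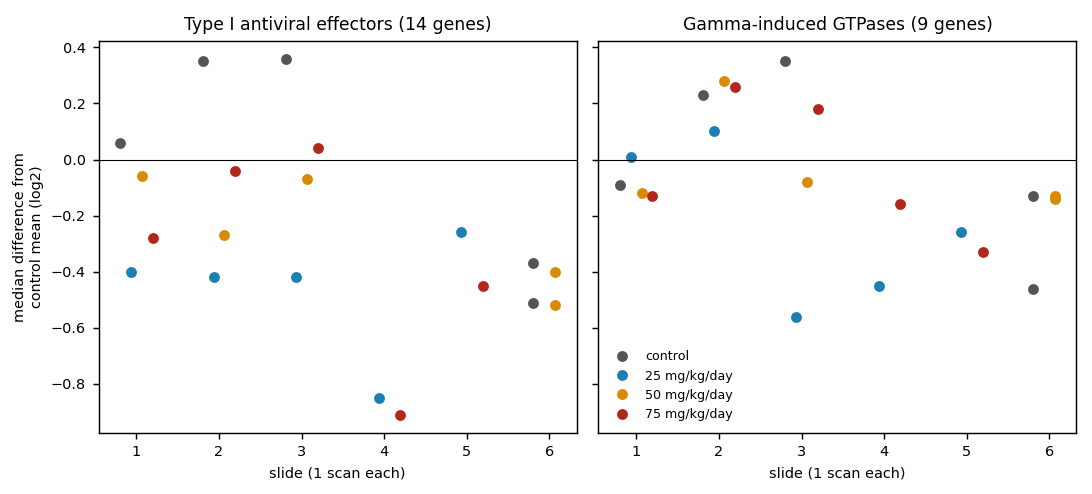
Each point is the median over the 14 type I effectors (left) or the 9 GTPases (right) of the difference of 1 liver from the control mean, by slide, coloured by dose. On slides 1 to 3 the control point lies above the exposed points for the type I effectors, and on slide 6 both controls lie at -0.37 and -0.51, beside the 2 arrays at 50 mg/kg/day.

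When the exposed groups were compared with each other, 29 of the 35 genes had a higher mean at 50 than at 25 mg/kg/day. At 75 against 25 mg/kg/day 31 had a higher mean. The members' median difference was 0.16 in each of these comparisons, against -0.01 and 0 over all present probes. Between the lower of these doses (50 against 25), 7 genes were higher at the unadjusted threshold and 0 lower, against 4.60% of all probes higher. These were Isg15, Usp18, Oas1a, Bst2, Irf7, Igtp and Tap1. Isg15 was separated between the 2 groups, as were 1.06% of all probes in this direction, with a difference of 0.47 (SE 0.17, limma adjusted p 0.491). Irf7 differed by 0.62 (SE 0.21) and Igtp by 0.59 (SE 0.19, limma adjusted p 0.466). At 75 against 25 mg/kg/day, groups that share slides 1 to 5 array by array, 4 genes were higher (Isg15, Irf8, Igtp and Gbp7) and 0 lower, against 1.36% of all probes higher. This fit did not pair the arrays by slide, and with slide as a block 0 members were called too. All 25 mg/kg/day arrays lay at position 2 and all 75 mg/kg/day arrays at position 4, so dose and position cannot be told apart here. Igtp differed by 0.74 (SE 0.19, limma adjusted p 0.465), and Gbp7 by 0.36 (SE 0.12) with all 5 livers above all 5, as for 0.351% of all probes. At 75 against 50 mg/kg/day 0 members were under the unadjusted threshold in limma in either direction. None of the 3 comparisons called a member, where 0%, 0.0549% and 0% of all probes were called at 50 against 25, 75 against 25 and 75 against 50 mg/kg/day. These comparisons share arrays with those against the controls, and their values are given side by side only.

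The interferons and receptors upstream of the set were read in the same fit. Of 8 interferon genes with a probe, Ifna2 alone was present, and the control means of the 8 ran from -0.09 to 0.20. Interferon gamma (Ifng) was well above background on 0 control arrays. The type I receptor subunits Ifnar1 and Ifnar2 differed by 0.28 and -0.03 at 25 mg/kg/day (limma adjusted p 0.702 and 0.97). The gamma receptor subunits Ifngr1 and Ifngr2 differed by -0.08 and -0.04, and the lambda receptor chain Ifnlr1 by -0.21 (limma adjusted p 0.902, 0.974 and 0.691). Of 15 receptor and JAK-STAT genes and 15 adaptors and kinases of the sensing pathway, 0 were under the unadjusted limma threshold against control at any dose.

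Of 68 other genes of the pathway that were present, 0 were called in limma at 25 mg/kg/day, and the median difference was -0.03. At the unadjusted threshold 7 were lower and 1 higher, against 3.62% and 4.18% of all probes. All 8 were among 37 further interferon-induced genes, and they are named here after their values were seen, since none of the 68 was separated from the controls at this dose. Lgals3bp, a secreted glycoprotein, differed by -0.47 (SE 0.11, limma adjusted p 0.637), and Cmpk2, a mitochondrial nucleotide kinase that lies beside Rsad2, by -0.54 (SE 0.16). Uba7, the enzyme that activates Isg15 for conjugation, differed by -0.28 (SE 0.13), and Ifi35, Gbp6, Adar and Rtp4 by -0.33, -0.54, -0.32 and -0.54. Ifitm1, which blocks virus entry at membranes, had 0.38, 0.39 and 0.47 at the 3 doses (SE 0.16 each, limma adjusted p 0.637, 0.707 and 0.293). Of the 68, 1 was lower and 3 higher at 50 mg/kg/day, against 2.94% and 3.75% of all probes. At 75 mg/kg/day 3 were lower and 4 higher, against 4.69% and 6.52% of all probes.

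Markers of liver cell types were read beside the set. At 25 mg/kg/day the 8 endothelial markers had a median difference of 0.36, with 4 higher at the unadjusted limma threshold, and the 7 hepatocyte markers one of 0.36, with 1 higher. The 10 Kupffer cell markers had a median of 0.17 and the 6 T and NK cell and 6 dendritic cell markers of -0.08 each. B cell, neutrophil, stellate cell and bile duct markers (4, 3, 7 and 5 genes) had medians of -0.08, 0.18, 0.26 and -0.27. At that threshold 1 stellate cell marker was higher, and 1 marker each of the T and NK cell, dendritic cell and bile duct lists lower. Over all probes 4.18% were higher and 3.62% lower at this dose. At 75 mg/kg/day, where Irf8 lay above every control, the medians were 0.44 for endothelial and hepatocyte markers, 0.14 for Kupffer cell, 0.39 for neutrophil, 0.34 for stellate cell and -0.08 for dendritic cell markers. At the unadjusted limma threshold 5 of 7 hepatocyte, 4 of 8 endothelial and 3 of 7 stellate cell markers were then higher. So were 2 of 3 neutrophil, 2 of 10 Kupffer cell and 1 of 5 bile duct markers, against 6.52% of all probes. Lower at that threshold were 1 marker each of the T and NK cell, dendritic cell and bile duct lists, against 4.69% of all probes. Marco, a scavenger receptor of Kupffer cells, rose by 2.19 on the log2 scale at 75 mg/kg/day (limma adjusted p 0.00148), and Lyve1, a hyaluronan receptor of sinusoidal endothelium, by 2.23 (limma adjusted p 0.0189), each named after its values were seen. Per liver, the mean over the endothelial markers, Lyve1 among them, of the difference from control ran from -0.48 to 0.35 in the controls. This mean ran from 0.13 to 0.70 at 25 and from 0.22 to 1.01 at 75 mg/kg/day. Over the controls the mean of the hepatocyte markers ran from -0.60 in control 4 to 0.73 in control 1, the control in which Ifit1 and Usp18 were highest. The part of these markers in the values of the interferon response genes was not tested.

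Whether members varied together from liver to liver was examined in 3 pairs, with the mean of each dose group removed. Isg15 and Usp18, the modifier and its protease, had Pearson's r = 0.71 (n = 20, permutation within dose groups, two-sided, p = 0.00624, adjusted over 3 pairs 0.0187) and Spearman's rho = 0.67 (permutation p = 0.00294, adjusted 0.00882). Without the 2 livers farthest from the median of Isg15, r was 0.55. With the slide mean removed as well, r was 0.43 (permutation p = 0.0814), so the relation did not pass the threshold within slides. Igtp and Irgm2 had r = 0.39 (n = 19, permutation p = 0.0937, adjusted 0.0937) and rho = 0.44 (permutation p = 0.0563, adjusted 0.0844). Without the 2 farthest livers r was 0.35, and within slides it was 0.60 (permutation p = 0.0197). Isg15 and Igtp, the leading genes of the type I and gamma classes, had r = 0.52 (n = 20, permutation p = 0.0179, adjusted 0.0268) and rho = 0.39 (permutation p = 0.095, adjusted 0.095). Without the 2 farthest livers r was 0.24, so the relation rests on them, and within slides r was 0.39 (permutation p = 0.127).

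**Figure D5:**
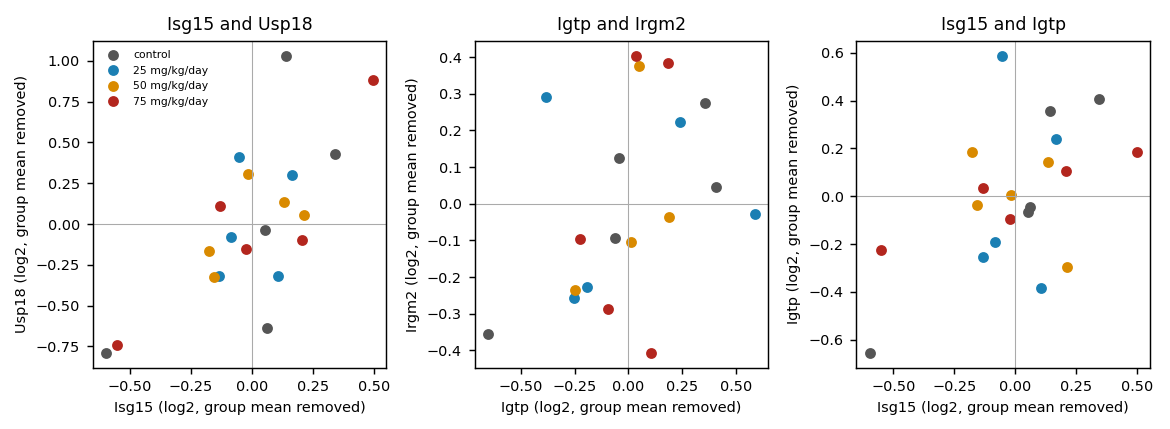
Each point is 1 liver, coloured by dose group, and both axes are log2 ratios of liver over reference with the mean of the dose group removed. The points of Isg15 and Usp18 run from lower left to upper right (r = 0.71), those of Igtp and Irgm2 scatter more (r = 0.39), and in the panel of Isg15 and Igtp control 3 is the lowest point on both axes.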

How the data were processed

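Liver RNA (Cy5) and universal mouse reference RNA (Cy3) of 20 livers were hybridized on two-color arrays. The median intensity of spot and background was deposited by the authors from Agilent Feature Extraction (10.1.1.1 per the file headers) without normalization, together with processed intensities that the software had background subtracted and dye normalized. The log2 ratios deposited by the authors had been LOWESS normalized. Marks for outlier spots and for spots well above background were used as deposited.

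Here intensities were background corrected (normexp, offset 50) and loess normalized within arrays with R 4.3.3 and limma 3.58.1, and spots of 1 probe were averaged. A probe was present if its liver signal passed the 5% trimmed mean plus 3 trimmed SDs of 153 negative controls on 4 or more of the 5 arrays in any group, as in the study's methods. Symbols came from RefSeq accessions. A model of all 20 arrays gave 6 comparisons, tested by limma with Benjamini-Hochberg adjustment over 27345 probes, and called meant adjusted p under 0.05 and fold over 1.5. The study used MAANOVA and left out 1 unnamed array. All 20 were kept here, and an Fs statistic with 100 residual shufflings was an alternative. Other alternatives were the background correction and its offset, the processed and deposited values, quantile normalization, the liver channel alone, the filters, the slide as a fixed or random block (statmod 1.5.0), the 2 groups alone, joint adjustment, the mean of a gene's probes and leaving out each array. Covariation was tested by 100000 permutations within dose groups. The fits were tested on simulated data.

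Values in every array are given for Isg15, Igtp and, in each of 5 roles, the 2 members of smallest unadjusted p at each dose, and other members were named for their spread after their values were seen. The fits on slides 1 to 3 alone and without the slide 6 controls or arrays were added after seeing the data. Replicates are animals, and their number limits the precision. The members, lists and tests were chosen with earlier results of these data known. Figures were drawn with matplotlib. The result for 1 gene of the pathway lists is not reported here.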

Additional observations from a re-analysis of the deposited data

Results flagged for a closer look

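In 140 groups of 4 or 5 livers (35 genes at 4 doses), 8 groups (5.71%) held a liver that stood apart from its group by Dixon's test at the 95% level, and chance gives about 1 in 20 such groups. Stat2 gave 2 of them. It was 2.05 in control 3, where the next control had 1.26, and 2.04 in replicate 7 at 25 mg/kg/day, where the next liver had 1.07. The highest livers at 50 and 75 mg/kg/day, at 1.98 and 2.10, were below the limit of the test. Ifi47 was 3.48 in replicate 8 at 25 mg/kg/day, where the next liver had 2.03, and Tgtp1 was 0.39 in replicate 16 at 75 mg/kg/day, where the next had -0.92. Replicate 6 at 25 mg/kg/day was the lowest of its group for Ifit1 (-1.35, next -0.71) and Parp14 (1.04, next 1.42). Replicate 12 at 50 mg/kg/day was the lowest for Ifih1 (1.56, next 2.05) and the highest for Socs1 (-1.25, next -1.91).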

How the results depend on the processing

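Under the planned settings other than leaving out an array, 0 members were called in each of the 6 comparisons. Over these settings and the added ones the members' median difference ran from -0.39 to -0.19 at 25, from -0.25 to -0.03 at 50 and from -0.28 to -0.05 at 75 mg/kg/day. Leaving out 1 array at a time gave 0 to 2 called members at 25 mg/kg/day and 0 in the other comparisons, and 9 to 16, 1 to 6 and 0 to 8 members lower at an unadjusted limma p under 0.05 at 25, 50 and 75 mg/kg/day. The share of all probes lower ran from 2.34 to 5.03%, from 1.41 to 5.09% and from 2.93 to 6.28% over these fits. The members' medians ran from -0.32 to -0.21, from -0.18 to -0.01 and from -0.20 to -0.05. The count of lower members was 8 at both 50 and 75 mg/kg/day with slide as a fixed block, 8 at 75 mg/kg/day with slide as a random block, and 5 at 75 mg/kg/day in the deposited log2 ratios, where 7.75% of all probes were lower against 4.69% in the main values. In settings added after seeing the data it was 21, 12 and 9 in slides 1 to 3 alone, 19, 13 and 13 without both slide 6 controls, and 18, 7 and 12 without slide 6, at 25, 50 and 75 mg/kg/day. Each of these settings called 1 member, Rsad2, at 75 mg/kg/day, where in that order they called 0.296, 0.783 and 0.625% of all probes. Ddx58 at 25 mg/kg/day was -0.03 as the mean of its probes, which disagree. With the slide mean removed, r was 0.43 for Isg15 with Usp18, 0.60 for Igtp with Irgm2 and 0.39 for Isg15 with Igtp. The unadjusted permutation p was 0.0814, 0.0197 and 0.127 in that order. In the liver channel alone r was 0.74, 0.50 and 0.31 for the 3 pairs (unadjusted permutation p 0.00195, 0.0235 and 0.166). Igtp with Irgm2 was thus under 0.05 in these settings but not in the main one, and the order of the pairs changed with the setting. Leaving out 1 array gave r of 0.62 to 0.78, 0.24 to 0.54 and 0.28 to 0.64 for the 3 pairs. Fits without slide 6 hold fewer arrays, and the cause of the other shifts was not tested. The groups share no replicate numbers, and only the slide was tried as a block. Ifi44 and Ifit2 were not well above background on every array, which limits their values.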
